A study of Rattus norvegicus with 27 samples.

Results

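This account follows 9 transcriptional regulators in cultured rat Schwann cells, the glia that wrap the axons of peripheral nerves. They were taken by name from the cell mRNA table: the 4 Id genes (Id1, Id2, Id3 and Id4), the zinc finger repressors Zeb1, Zeb2 and Snai2, the paired-box factor Pax3, and the basic helix-loop-helix (bHLH) factor Olig1. All 9 were among the 17315 genes of the table, and 7 of them were among the 10372 genes with enough counts to be tested. Pax3 and Olig1 were not. The level of a gene is given throughout in CPM, its estimated count as a share of the library's total, scaled in the usual way so that libraries of different depth can be compared.

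The cells were bought as primary rat Schwann cells and used at passages 3 to 5, with 3 libraries per stage. Differentiation was induced with dbcAMP (dibutyryl cyclic AMP), which enters cells and acts like the second messenger cyclic AMP. The undifferentiated cells were never given it, and the labels say nothing more of their medium. The differentiated cells were kept for 72 h with 1 mM dbcAMP in DMEM with 1% serum depleted of exosomes. Dedifferentiated cells were given the same 72 h of dbcAMP and then 72 h without it, in a complete medium with 10% exosome-depleted serum, forskolin, which itself raises cyclic AMP, and 10 ng/mL neuregulin. Stage and medium therefore changed together and cannot be told apart. No axons were named in any culture, and no cell carried a stated genetic change. The labels call the 3 libraries of a stage biological replicates without saying that they came from separate cultures or animals, so p-values measure the spread between these samples.

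Id proteins are helix-loop-helix proteins without a DNA-binding region. They pair with the E proteins Tcf3, Tcf4 and Tcf12, the common partners of bHLH factors, and keep them off DNA, which in many lineages holds back differentiation. Their genes are classic targets of bone morphogenetic protein (BMP) signalling through Smad proteins. Zeb1, Zeb2 and Snai2 bind E-box DNA and repress genes such as the epithelial cadherin Cdh1, and Snai2 marks migrating neural crest, the embryonic source of Schwann cells. Zeb2 stands apart in nerve: it is known to be needed for Schwann cells to myelinate, where it works with histone deacetylases against the differentiation inhibitors Sox2, Ednrb and Hey2. Pax3 is known from immature Schwann cells as a repressor of myelin genes, and Olig1 from the oligodendrocyte lineage of the central nervous system.

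The cells carried the markers of their label. The Schwann cell markers Sox10, S100b, Erbb3 and Ngfr were well above 1 CPM in every library. Sox10 was 1250 to 1480 CPM in undifferentiated, 964 to 1110 CPM in differentiated and 1320 to 1540 CPM in dedifferentiated cells, and Erbb3, the neuregulin receptor, was at 782 CPM or more throughout. Of 7 fibroblast markers, the collagen genes Col1a1 and Col1a2, which other cells also express, were the ones at 1 CPM or more in every library. The fibroblast sum was 24400 to 29100 CPM in undifferentiated, 11900 to 15600 CPM in differentiated and 15900 to 19400 CPM in dedifferentiated cells. Thy1 was 0.37 to 1.92 CPM over the 9 libraries. Lum was at 0 in all 9 libraries, and Dcn, Pdgfra and Prrx1 stayed under 1 CPM. Summed neuron markers reached 0.678 CPM at most. Macrophage markers summed to 0.322 to 1.7 CPM, 3.64 to 5.09 CPM and 1.88 to 3.39 CPM in the 3 stages in that order, and endothelial markers to 1.21 to 3.08 CPM, 5.67 to 8.26 CPM and 3.98 to 7.88 CPM. The macrophage and endothelial sums moved in the direction of Id2 and Id4. Their tested markers, Cd68, Csf1r and Tek, were higher in differentiated than in undifferentiated cells. The log2 changes were 2.13, 6.2 and 2.37 in that order (edgeR's adjusted p = 0.00387, 0.00231 and 0.000851). Between dedifferentiated and differentiated cells they were -1.31, 0.01 and -0.32 (edgeR's adjusted p = 0.0421, 0.988 and 0.521). Csf1r was at 0 in every undifferentiated library and stayed under 1 CPM in the others. It passed the filter on low counts through libraries of the later stages, so its log2 change of 6.2 rests on counts of 0. Aif1 and Cdh5 were at 0 in every library. Of the oligodendrocyte markers Sox8 alone was at 1 CPM or more in every library, and Olig2 and Mobp were at 0 throughout. The oligodendrocyte sum, carried by Sox8, was 83.5 to 283 CPM, 19.1 to 66.3 CPM and 90.4 to 102 CPM. That of melanocyte markers, carried by Mitf, was 13.9 to 17.2 CPM, 13 to 16.6 CPM and 22.7 to 40.1 CPM. The part of these markers in the results below was not tested. Libraries held 10058735 to 16212278 estimated counts, so 3 counts, the floor used here, correspond to 0.185 to 0.298 CPM. In each stage the labels place replicate 3 in another sequencing project than replicates 1 and 2.

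Below, "under dbcAMP" stands for differentiated against undifferentiated cells, medium included, and "after withdrawal" for dedifferentiated against differentiated cells. In the first of these comparisons the myelin genes Pou3f1 and Prx rose. The transcription factor Pou3f1 was 7.93 higher on the log2 scale in differentiated than in undifferentiated cells (adjusted p = 6.35e-09) and periaxin, Prx, 7.20 higher (adjusted p = 2.55e-08). Both were still higher in dedifferentiated than in undifferentiated cells, by 4.85 (adjusted p = 8.52e-07) and 6.64 (adjusted p = 5.08e-07). Throughout, a gene was called when its adjusted p was under 0.05 in edgeR's quasi-likelihood test with Benjamini-Hochberg adjustment over the 10372 genes, and log2 changes carry their standard error (SE).

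Grouping these 9 genes as regulators of the immature state described some of them better than others. Snai2, Zeb2 and Id3 were called lower in differentiated than in undifferentiated cells. Id2 and Id4 were called higher there. Pax3 and Olig1 lay at or near the detection floor in all 3 stages. In all, 5 of the 7 tested genes were called in this comparison, where 59.6% of all genes tested were called (31.7% higher and 27.9% lower). The libraries of the same 5 genes did not overlap between these stages, which held for 66.3% of all genes tested. In this comparison the number of changed members did not set them apart. The direction and size for each gene are the substance of what follows.

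**Figure D1:**
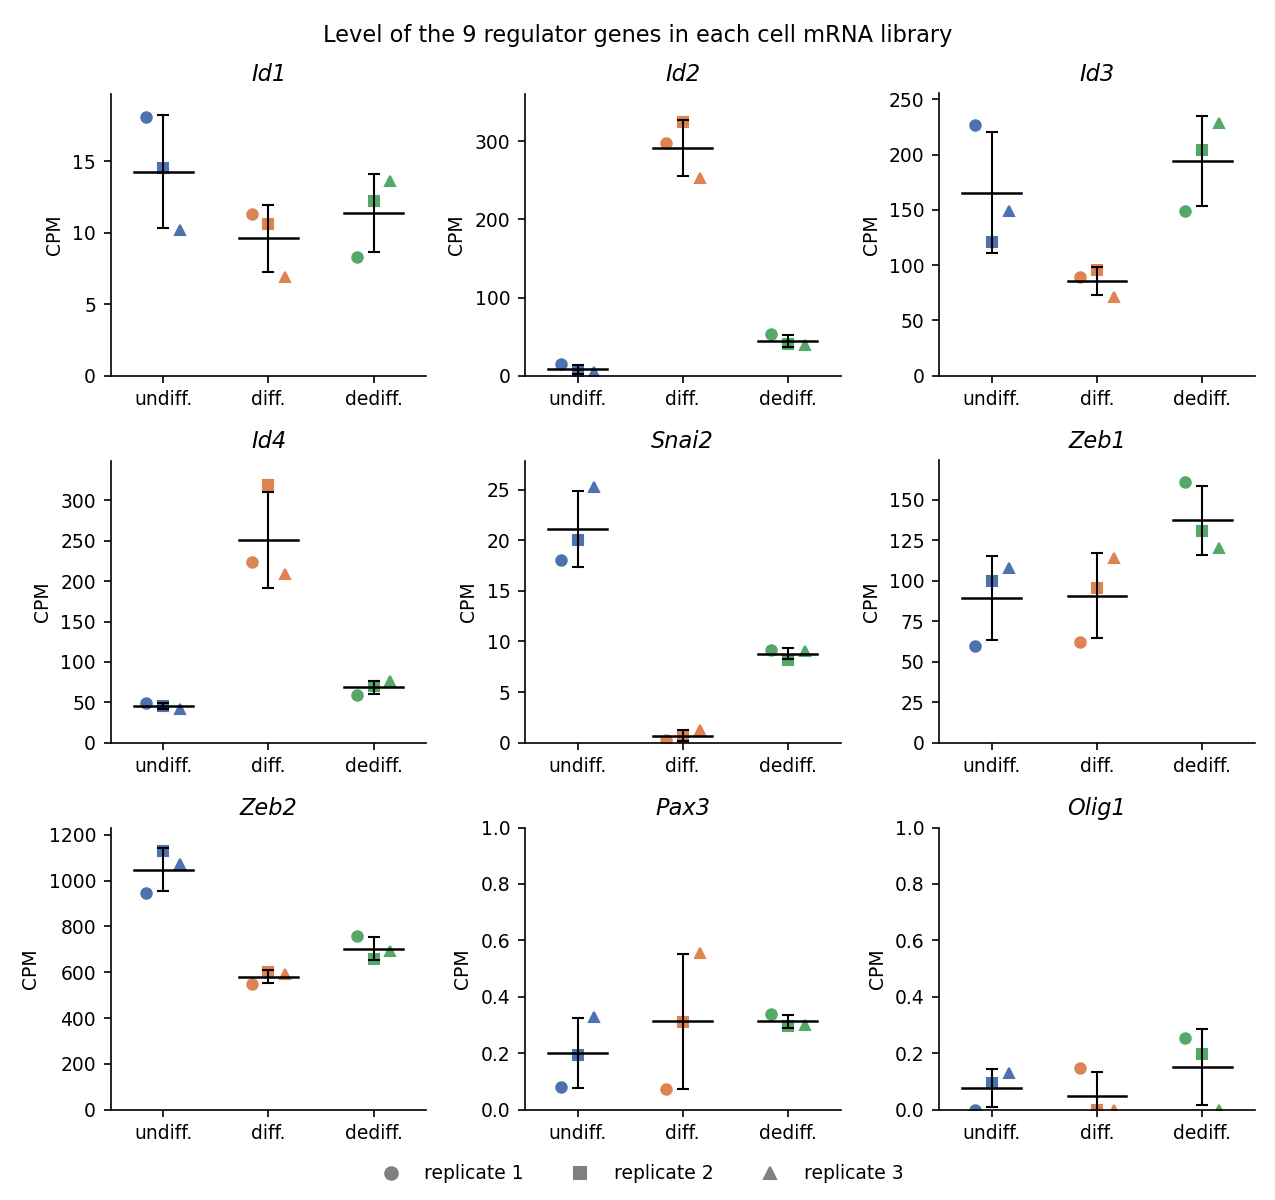
Level of each of the 9 genes in CPM (vertical axes, from 0, each with its own range) in undifferentiated, differentiated and dedifferentiated cells. Symbols are single libraries, with the shape giving the replicate, horizontal lines are stage means and bars are SD over 3 libraries. Id2 and Id4 peak in differentiated cells, Snai2 and Zeb2 are highest in undifferentiated cells, and Pax3 and Olig1 stay under 0.6 CPM.

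Id2 changed most among the Id genes. Its level was 14.4, 4.9 and 4.38 CPM in the 3 undifferentiated libraries (7.9 ± 5.65, SD, n = 3), 298, 324 and 253 CPM in the differentiated ones (292 ± 35.8) and 53.2, 40.4 and 39.3 CPM in the dedifferentiated ones (44.3 ± 7.72). The 3 stages did not overlap: every differentiated library lay above every dedifferentiated one, and these lay above every undifferentiated one. Id2 was thus 35.3-fold higher in differentiated than in undifferentiated cells (log2 change 5.14, SE 0.38, adjusted p = 1.01e-06). Undifferentiated replicate 1 held about 3 times the level of its 2 companions, and without it the log2 change was 5.94. On withdrawal Id2 fell 6.53-fold (log2 change -2.71, SE 0.33, adjusted p = 7.98e-05). It did not come back to its starting level, and 47.3% of the log2 change made under dbcAMP was left. Dedifferentiated cells held 5.4-fold more Id2 than undifferentiated cells (log2 change 2.43, SE 0.36, adjusted p = 0.000615; 3.23 without undifferentiated replicate 1).

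Id4 followed the same course with a smaller swing. Its level was 49.5, 45.7 and 41.3 CPM in undifferentiated cells (45.5 ± 4.1), 224, 319 and 209 CPM in differentiated cells (250 ± 59.6) and 59.4, 70.3 and 75.8 CPM in dedifferentiated cells (68.5 ± 8.34). The differentiated libraries were again the highest, and no stage overlapped another. Id4 was 5.26-fold higher under dbcAMP (log2 change 2.40, SE 0.17, adjusted p = 5.96e-07) and fell 3.62-fold after it (log2 change -1.86, SE 0.16, adjusted p = 8.14e-06), which left 22.5% of the log2 change. The remaining 1.45-fold difference between dedifferentiated and undifferentiated cells was called (log2 change 0.54, SE 0.16, adjusted p = 0.0289). The call was lost in the first sequencing project alone (0.39, adjusted p = 0.222) and with single libraries left out: without undifferentiated replicate 2 or 3, or without dedifferentiated replicate 2 or 3, the adjusted p was 0.0787, 0.0984, 0.0907 and 0.0991 in that order.

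Id3 moved the other way. It measured 227, 121 and 149 CPM in undifferentiated cells (166 ± 55), 89.7, 95.2 and 71.6 CPM in differentiated cells (85.5 ± 12.3) and 149, 204 and 229 CPM in dedifferentiated cells (194 ± 41). Every differentiated library was below all others, while the undifferentiated and dedifferentiated libraries overlapped. Id3 was 2.03-fold lower under dbcAMP (log2 change -1.02, SE 0.23, adjusted p = 0.00312) and rose 2.29-fold after withdrawal (log2 change 1.19, SE 0.23, adjusted p = 0.00191). Within the first sequencing project alone, the rise was 0.95 on the log2 scale with an adjusted p of 0.0526. Between dedifferentiated and undifferentiated cells the log2 change of 0.17 was not called (adjusted p = 0.622).

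Id1 did not pass the test in any comparison. Its level was 18.1, 14.5 and 10.2 CPM in undifferentiated, 11.3, 10.6 and 6.91 CPM in differentiated and 8.31, 12.2 and 13.6 CPM in dedifferentiated cells, and all 3 stages overlapped. The log2 change under dbcAMP was -0.64 (SE 0.27, adjusted p = 0.0637). It passed in DESeq2's Wald test (adjusted p = 0.0352) and with no filter on low counts (0.045), as well as without undifferentiated replicate 3 (0.0207) or dedifferentiated replicate 1 (0.0431). After withdrawal the log2 change was 0.26 (adjusted p = 0.459).

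The Id genes therefore changed relative to each other within the same libraries, a comparison that does not depend on how libraries are scaled. For each count of Id3 there were 0.0635, 0.0404 and 0.0295 counts of Id2 in undifferentiated cells. In differentiated cells the ratio was 3.32, 3.41 and 3.54, and in dedifferentiated cells 0.357, 0.198 and 0.172. No stage overlapped another, and the mean log2 ratio was 6.34 higher under dbcAMP than before it and still 2.44 higher after withdrawal than at the start. The ratio of Id4 to Id3 went from 0.218, 0.377 and 0.277 to 2.5, 3.35 and 2.91 and then to 0.399, 0.344 and 0.331, so that dedifferentiated and undifferentiated libraries overlapped. Id2 also rose relative to Id4, with 0.292, 0.107 and 0.106 counts of Id2 for each of Id4 in undifferentiated, 1.33, 1.02 and 1.22 in differentiated and 0.894, 0.574 and 0.518 in dedifferentiated cells. An exact two-sided permutation test over 3 libraries against 3 cannot go below p = 0.1, so these ratios are given as a description. Transcript lengths enter each ratio, which is read across stages and not as which gene is the more abundant.

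**Figure D2:**
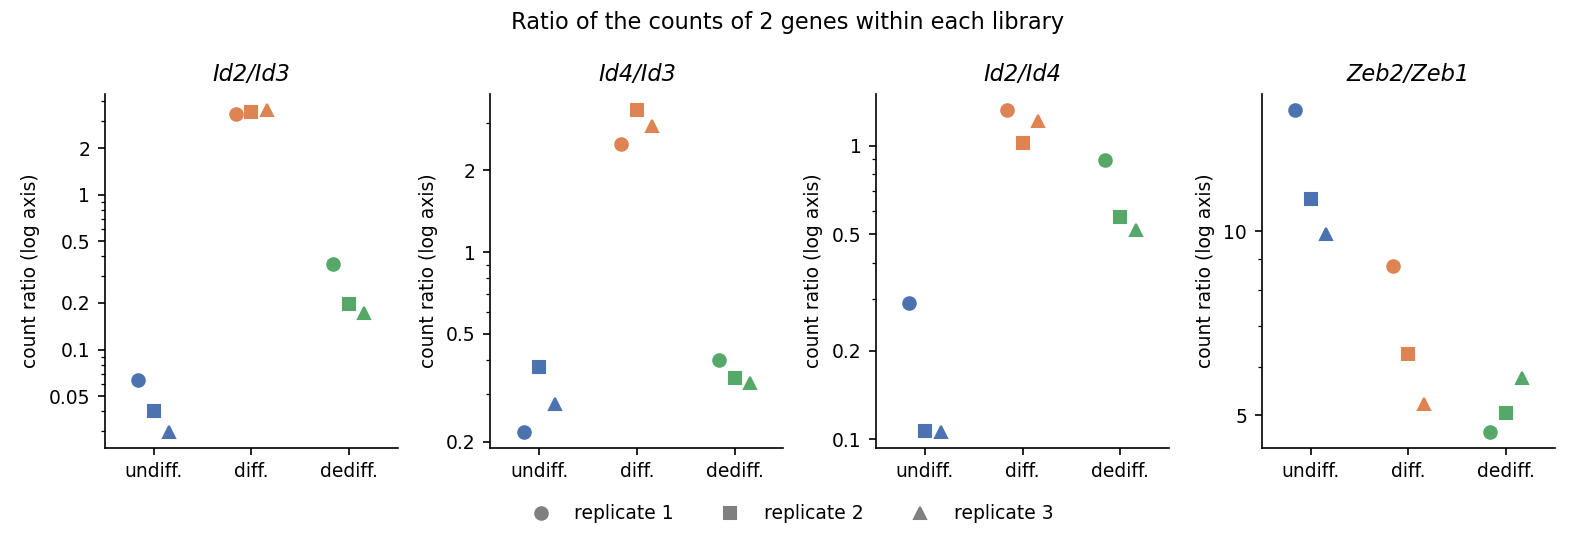
Ratio of the counts of a pair of genes within each library (vertical axes, log scale) for Id2/Id3, Id4/Id3, Id2/Id4 and Zeb2/Zeb1 by stage, with single libraries as symbols and the shape giving the replicate. The Id2/Id3 ratio is 3.32 to 3.54 in the 3 differentiated libraries and under 0.36 in all others.

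Upstream sequence is shown for Id2, the Id gene with the largest rise, and for Zeb2, because dbcAMP acts in large part through protein kinase A and CREB, which binds the cyclic AMP response element (CRE). The 250 bases before the RefSeq start of each gene (build GRCr8, the gene's own strand, 5′ to 3′) were searched on both strands for the full CRE (TGACGTCA), its half-site (TGACG), the core bound by Zeb and Snail proteins (CACCT) and the CCAAT box (CCAAT). A full CRE contains the half-site on both strands. Capitals mark the matches, of which Id2 has CCAAT boxes on both strands (CCAAT or ATTGG) and Zeb2 a Zeb and Snail core (AGGTG) followed by a CRE half-site (CGTCA). The Id2 window is chr6:47470996-47471245 and the Zeb2 window chr3:49754324-49754573, both for genes on the minus strand.
Id2: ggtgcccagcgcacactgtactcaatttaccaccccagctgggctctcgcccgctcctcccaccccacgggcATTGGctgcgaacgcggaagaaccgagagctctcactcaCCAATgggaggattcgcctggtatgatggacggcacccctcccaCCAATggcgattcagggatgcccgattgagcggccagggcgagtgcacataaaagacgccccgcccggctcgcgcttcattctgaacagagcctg
Zeb2: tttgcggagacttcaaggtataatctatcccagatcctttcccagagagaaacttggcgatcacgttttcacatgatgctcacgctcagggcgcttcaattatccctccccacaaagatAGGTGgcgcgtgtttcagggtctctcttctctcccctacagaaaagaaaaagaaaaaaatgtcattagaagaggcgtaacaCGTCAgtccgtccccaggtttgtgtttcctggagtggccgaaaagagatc
Of the 9 genes, 7 had a RefSeq window. The full CRE was in 0 of the 7, and in 1.59% of all 33469 windows. The half-site was in those of Pax3 and Zeb2, and in 18.2% of all windows. The Zeb and Snail core was in those of Id1, Zeb1 and Zeb2, and in 44.4% of all windows. The CCAAT box was in those of Id1, Id2 and Pax3, and in 34.0% of all windows. These are matches of letters, and the windows of Id1, Id3 and Zeb1 lie partly or wholly inside the annotated span of the gene.

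Snai2 fell furthest. It was counted 225, 208 and 387 times in the undifferentiated libraries, 3, 7 and 21 times in the differentiated ones and 108, 82 and 120 times in the dedifferentiated ones. In CPM this was 18.1, 20.0 and 25.3 (21.2 ± 3.73), 0.221, 0.54 and 1.3 (0.686 ± 0.552) and 9.16, 8.15 and 9.03 (8.78 ± 0.546). The stages did not overlap, and the lowest differentiated library was at the floor of 3 counts. Snai2 passed the filter on low counts through its undifferentiated and dedifferentiated libraries. It was 30.5-fold lower under dbcAMP (log2 change -4.93, SE 0.35, adjusted p = 8e-07) and rose 12.3-fold on withdrawal (log2 change 3.62, SE 0.36, adjusted p = 2.2e-05). Differentiated replicate 3, the deepest library, held most of the differentiated counts, and without it these changes were -5.82 and 4.51. Dedifferentiated cells remained 2.49-fold below undifferentiated cells (log2 change -1.31, SE 0.27, adjusted p = 0.00423), with 26.6% of the log2 change left.

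Zeb2 was lower in every differentiated library and stayed low. Its level was 944, 1130 and 1070 CPM in undifferentiated cells (1050 ± 96.1), 547, 602 and 594 CPM in differentiated cells (581 ± 29.9) and 757, 659 and 691 CPM in dedifferentiated cells (703 ± 50.2). The replicates of a stage lay close together and no stage overlapped another. Zeb2 fell 1.88-fold under dbcAMP (log2 change -0.91, SE 0.092, adjusted p = 1.02e-05). It rose 1.22-fold on withdrawal (log2 change 0.29, SE 0.091, adjusted p = 0.0244), a call lost without differentiated replicate 1 (adjusted p = 0.0755), differentiated replicate 3 (0.0574) or dedifferentiated replicate 1 (0.0504), and in the first sequencing project alone (0.153). Dedifferentiated cells held 1.54-fold less Zeb2 than undifferentiated cells (log2 change -0.62, SE 0.091, adjusted p = 0.000531), and 68.1% of the log2 change was left. The summed level of the fibroblast markers, carried by Col1a1 and Col1a2, moved in the same direction as Zeb2 and Snai2, and its part in these results was not tested. On withdrawal Col1a1 was called higher (log2 change 0.71, adjusted p = 0.00675) and Col1a2 was not called (-0.16, adjusted p = 0.259). In bulk RNA, fewer cells of a type and less RNA per cell cannot be told apart.

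Zeb1 did not follow its paralog. It measured 59.6, 100 and 108 CPM in undifferentiated cells (89.3 ± 26), 62.3, 95.8 and 114 CPM in differentiated cells (90.6 ± 26.2) and 161, 131 and 120 CPM in dedifferentiated cells (137 ± 21.3). The first 2 stages overlapped almost entirely, with replicate 1 the lowest in each, while every dedifferentiated library was above both. Between differentiated and undifferentiated cells the log2 change was -0.04 (adjusted p = 0.904). After withdrawal it was 0.62 (SE 0.23, adjusted p = 0.0509), just outside the threshold, and against undifferentiated cells 0.58 (adjusted p = 0.0881). The withdrawal change was called in 6 of 9 other analyses, among them DESeq2's Wald test (adjusted p = 0.0184) and the fit with sequencing project as a covariate (0.0493), and without undifferentiated replicate 1 (0.0185) or differentiated replicate 3 (0.03). Within libraries, the Zeb2 to Zeb1 ratio was 15.8, 11.3 and 9.9 in undifferentiated, 8.78, 6.29 and 5.22 in differentiated and 4.7, 5.04 and 5.76 in dedifferentiated cells. It was lower in both later stages than at the start with no overlap, and those 2 stages overlapped each other.

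Pax3 and Olig1 were barely detected. Pax3 was counted 1, 2 and 5 times in undifferentiated, 1, 4 and 9 times in differentiated and 4, 3 and 4 times in dedifferentiated cells, or 0.0737 to 0.555 CPM over the 9 libraries. Olig1 was counted at most 3 times in any library and 0 times in 4 of the 9. Both are at or close to the floor, so a difference between stages was not detectable at this depth, and no fold is given. In the fit without a filter, edgeR's adjusted p was 0.634, 1 and 0.724 for Pax3 and 0.748, 0.474 and 0.749 for Olig1 in the 3 comparisons.

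**Figure D3:**
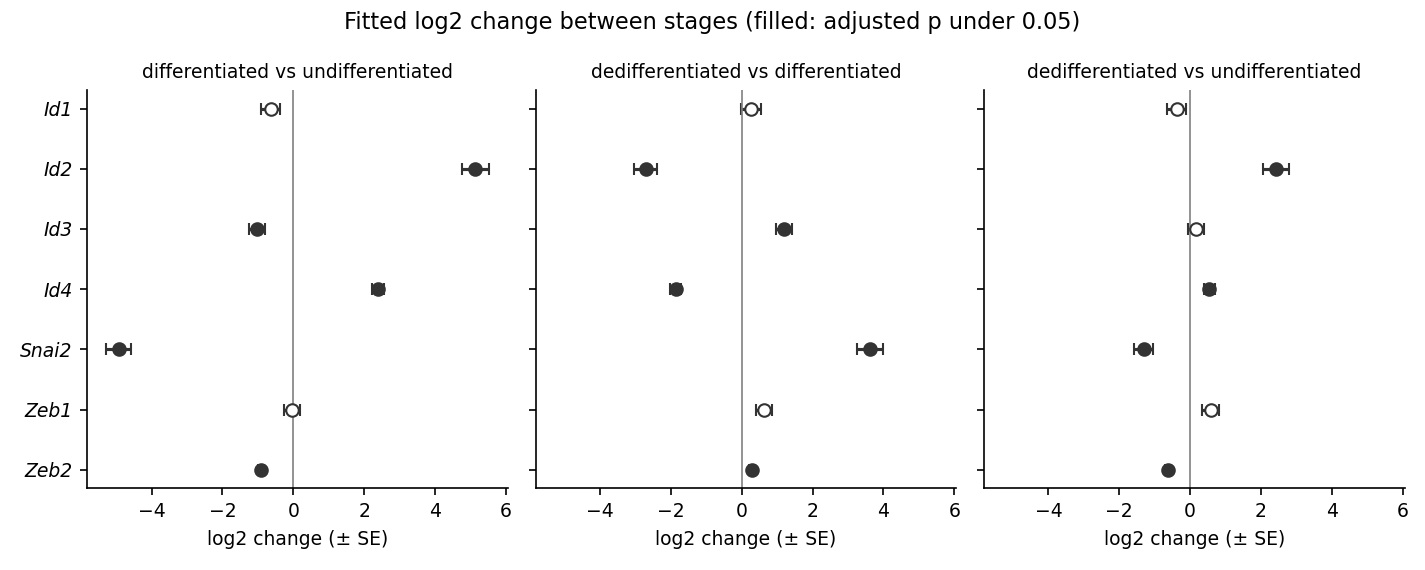
Fitted log2 change with its SE (horizontal axes) of the 7 tested genes in the 3 comparisons between stages, with filled points at an adjusted p under 0.05 in edgeR's quasi-likelihood test. Id2 and Id4 lie right of 0 under dbcAMP and left of 0 after withdrawal, and Snai2, Id3 and Zeb2 do the opposite.

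On withdrawal 5 of the 7 tested genes were called (Id3, Zeb2 and Snai2 higher, Id2 and Id4 lower). Over all genes tested 46.4% were called there (23.2% higher and 23.2% lower). Each of the 5 reversed the direction it had taken under dbcAMP. The 2 comparisons share the differentiated libraries, so the reversals are not independent of the first changes. Between dedifferentiated and undifferentiated cells 4 of the 7 were called (Id2 and Id4 higher, Zeb2 and Snai2 lower). Over all genes tested 29.4% were called there (16.1% higher and 13.3% lower). Libraries of Id2, Id4, Zeb2, Snai2 and Zeb1 did not overlap in either comparison, nor did those of Id3 on withdrawal, a separation that 58.5% of all genes showed on withdrawal and 43.9% against undifferentiated cells. Id3 was the gene called in the first 2 comparisons and not in this one.

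Of the 3 E proteins, which Id proteins sequester, Tcf4 and Tcf12 were called lower under dbcAMP. Over all genes tested 59.6% were called there, and 27.9% lower. Tcf4 measured 23.6, 33.6 and 29.5 CPM in undifferentiated, 14.7, 18.8 and 15.7 CPM in differentiated and 14.6, 15.0 and 15.6 CPM in dedifferentiated cells. It was 0.88 lower on the log2 scale under dbcAMP (SE 0.14, adjusted p = 0.000307) and 0.98 lower in dedifferentiated than in undifferentiated cells (adjusted p = 0.0005). Tcf12 was 81.8 to 96.5 CPM in undifferentiated, 58.7 to 68.8 CPM in differentiated and 61.6 to 68.1 CPM in dedifferentiated cells, with log2 changes of -0.56 (adjusted p = 0.000528) and -0.51 (adjusted p = 0.00261) in the same comparisons. For neither gene did the undifferentiated libraries overlap the later stages. The Tcf12 call between dedifferentiated and undifferentiated cells was lost in the first sequencing project alone (-0.52, adjusted p = 0.0526). Tcf3 lay between 128 and 184 CPM in all libraries and was not called under dbcAMP (log2 change -0.13, adjusted p = 0.279). In dedifferentiated cells it was called 0.31 lower than in undifferentiated cells (adjusted p = 0.0406), a call lost in 3 of 9 other analyses, such as the first sequencing project alone (0.105), and without any of 6 single libraries (adjusted p from 0.0502 to 0.127 without undifferentiated replicate 1 or 2, differentiated replicate 3, or dedifferentiated replicate 1, 2 or 3). Between dedifferentiated and undifferentiated cells 29.4% of all genes were called, and 13.3% lower. None of the 3 was called between dedifferentiated and differentiated cells, where 46.4% of all genes were called. The median log2 change of the 3 genes was -0.56, -0.11 and -0.51 in the 3 comparisons, against 0.05, -0.01 and 0.02 over all genes.

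Of 21 genes of the BMP and Smad axis that drives Id transcription, 14 were tested, and 2 were called higher and 6 lower under dbcAMP, a share near the 59.6% called over all genes. Their median log2 change was -0.56, against 0.05 over all genes, and 5 were called where 10 counts were asked of every library. The common mediator Smad4 was 322, 326 and 323 CPM in undifferentiated, 115, 135 and 130 CPM in differentiated and 214, 198 and 216 CPM in dedifferentiated cells. The 3 stages were wide apart (log2 change -1.42, SE 0.077, adjusted p = 1.12e-07 under dbcAMP and 0.74, adjusted p = 2.87e-05 after it). The BMP antagonist Chrdl1 fell from 3.3, 3.36 and 3.86 CPM to between 0.147 and 0.309 CPM (log2 change -3.79, SE 0.43, adjusted p = 2.48e-05). The ligand Bmp7 went the other way, and it passed the filter on low counts through its differentiated libraries. It was at or under 0.196 CPM in undifferentiated cells, 3.24, 4.32 and 3.76 CPM in differentiated cells and at or under 0.677 CPM in dedifferentiated cells (adjusted p = 4.16e-05 and 0.000572 for the 2 steps). Bmp6, 0 to 0.458 CPM before and 0.737 to 2.28 CPM under dbcAMP, was called at an adjusted p of 0.0313, and the call was lost without undifferentiated replicate 1 or 2 (0.0735 and 0.0839) or differentiated replicate 2 or 3 (0.0593 and 0.11). After withdrawal 6 genes of the list were called higher and 2 lower (median log2 change 0.43), where 46.4% of all genes were called. Against undifferentiated cells 0 were higher and 3 lower (median -0.06), where 29.4% of all genes were called. The total against undifferentiated cells was 5 without dedifferentiated replicate 1. The withdrawal total of 8 was 4 in the first sequencing project alone.

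The 3 genes that Zeb2 is known to repress in nerve did not move as a group. Sox2 fell from 657, 358 and 341 CPM to 120, 161 and 89.2 CPM under dbcAMP and was 377, 409 and 375 CPM after it. Its differentiated libraries were below all others (log2 change -1.94, SE 0.27, adjusted p = 0.000124; then 1.66, adjusted p = 0.000617). Hey2, a Notch effector, did the same at a lower level, with 8.86, 11.9 and 8.64 CPM before, 1.18, 0.695 and 0.802 CPM under dbcAMP and 2.8, 7.46 and 6.24 CPM after it (log2 change -3.50, adjusted p = 2.03e-05; then 2.62, adjusted p = 0.000361). Ednrb, an endothelin receptor, was the reverse: 52.4, 58 and 59.3 CPM, then 347, 439 and 354 CPM, then 110, 61.7 and 81.2 CPM (log2 change 2.69, SE 0.18, adjusted p = 5.65e-07; then -2.16, adjusted p = 6.14e-06). In dedifferentiated cells Ednrb was 0.53 above its starting level (adjusted p = 0.0445), a call lost in 5 of 9 other analyses and without any of 7 single libraries, all but differentiated and dedifferentiated replicate 2 (adjusted p 0.0513 to 0.157). Sox2 and Hey2 were not called between those stages (adjusted p = 0.459 and 0.0635), and Hey2 was called there in DESeq2's Wald test (0.0337) and without dedifferentiated replicate 2 (0.0413).

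Of the corepressors that Zeb proteins recruit, 10 of a list of 12 were tested, and 0 were called higher and 4 lower under dbcAMP, a smaller share than the 59.6% called over all genes (median log2 change -0.12, against 0.05 over all genes). The largest falls were small: Ctbp1 by 0.53 on the log2 scale (SE 0.068, adjusted p = 5.94e-05) and the histone deacetylase Hdac1 by 0.46 (SE 0.09, adjusted p = 0.00112). After withdrawal 2 were higher and 2 lower (median -0.10), where 46.4% of all genes were called. That total was 1 in the first sequencing project alone or without dedifferentiated replicate 3. It was 2 without any 1 of the differentiated libraries. Against undifferentiated cells 0 were higher and 3 lower (median -0.15), where 29.4% of all genes were called. None was called there in the first project alone.

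Snail and Zeb proteins control cadherin genes in other tissues. Cdh1, or E-cadherin, was 0.161, 0.769 and 0.196 CPM in undifferentiated cells, 130, 105 and 116 CPM in differentiated cells and 167, 90.7 and 90.3 CPM in dedifferentiated cells. It thus went from near the floor to a level kept after withdrawal, with a log2 change of 8.32 (SE 0.43) in both comparisons with undifferentiated cells (adjusted p = 7.34e-08 and 7.99e-07). Without undifferentiated replicate 2 these values were 9.18 and 9.19. Between dedifferentiated and differentiated cells Cdh1 was not called (log2 change 0.00, adjusted p = 0.998). Snai2 rose 12.3-fold there and remained 2.49-fold below undifferentiated cells, and a link of Snai2 to Cdh1 was not tested. Cdh2, or N-cadherin, fell from 297, 353 and 370 CPM to 80.6, 123 and 147 CPM (log2 change -1.60, SE 0.24, adjusted p = 0.000206) and was 136, 250 and 251 CPM after withdrawal, where 1 library overlapped the differentiated range (0.88, adjusted p = 0.0122; 0.0559 in the first project alone). The epithelial adhesion molecule Epcam reached 1.93 to 5.67 CPM under dbcAMP from 0.403 to 0.72 CPM (log2 change 2.63, adjusted p = 0.00209). Epcam was at or under 0.376 CPM after withdrawal and passed the filter on low counts through its differentiated libraries. Cdh11 was called 1.03 lower under dbcAMP (adjusted p = 0.0357), and that call was lost in 3 of 8 other analyses and without any of 5 single libraries (undifferentiated replicates 1 and 3, differentiated replicates 2 and 3, and dedifferentiated replicate 3; adjusted p 0.0513 to 0.115). In this list of 12 regulators and targets of the epithelial to mesenchymal transition, 8 were tested. Under dbcAMP 3 were higher and 2 lower (median log2 change 0.45), a share near the 59.6% called over all genes, with a total of 3 without differentiated replicate 3 and in the first project alone. After withdrawal 2 were higher and 2 lower (median -0.31), where 46.4% of all genes were called. Where 10 counts were asked of every library, the total was 1 in each of these comparisons. Against undifferentiated cells 1 was higher and 2 lower (median -0.12), where 29.4% of all genes were called. That total was 1 without undifferentiated or dedifferentiated replicate 3. In the first project alone the totals after withdrawal and against undifferentiated cells were both 1.

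Of a list of 16 other neural crest and bHLH factors, 11 were tested, and 1 was called higher and 7 lower under dbcAMP, where 59.6% of all genes were called and 27.9% lower. The list had a median log2 change of -1.26 against 0.05 over all genes. After withdrawal 7 were higher and 0 lower (median 0.91), where 46.4% of all genes were called and 23.2% higher. Against undifferentiated cells 2 were higher and 4 lower (median -0.42), where 29.4% of all genes were called. In the first sequencing project alone each of these last 2 totals was 3. Ets1, a crest factor, was 599, 581 and 692 CPM, then 72.7, 57.9 and 66.4 CPM, then 332, 366 and 377 CPM, with no stage overlapping another (log2 change -3.31, SE 0.11, adjusted p = 4.74e-09; then 2.46, SE 0.11, adjusted p = 9.42e-08). Hey1 was the gene called higher, from 2.66, 1.63 and 2.42 CPM to 9.72, 6.87 and 7.59 CPM (log2 change 1.77, SE 0.24, adjusted p = 0.000109), opposite to its relative Hey2.

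**Figure D4:**
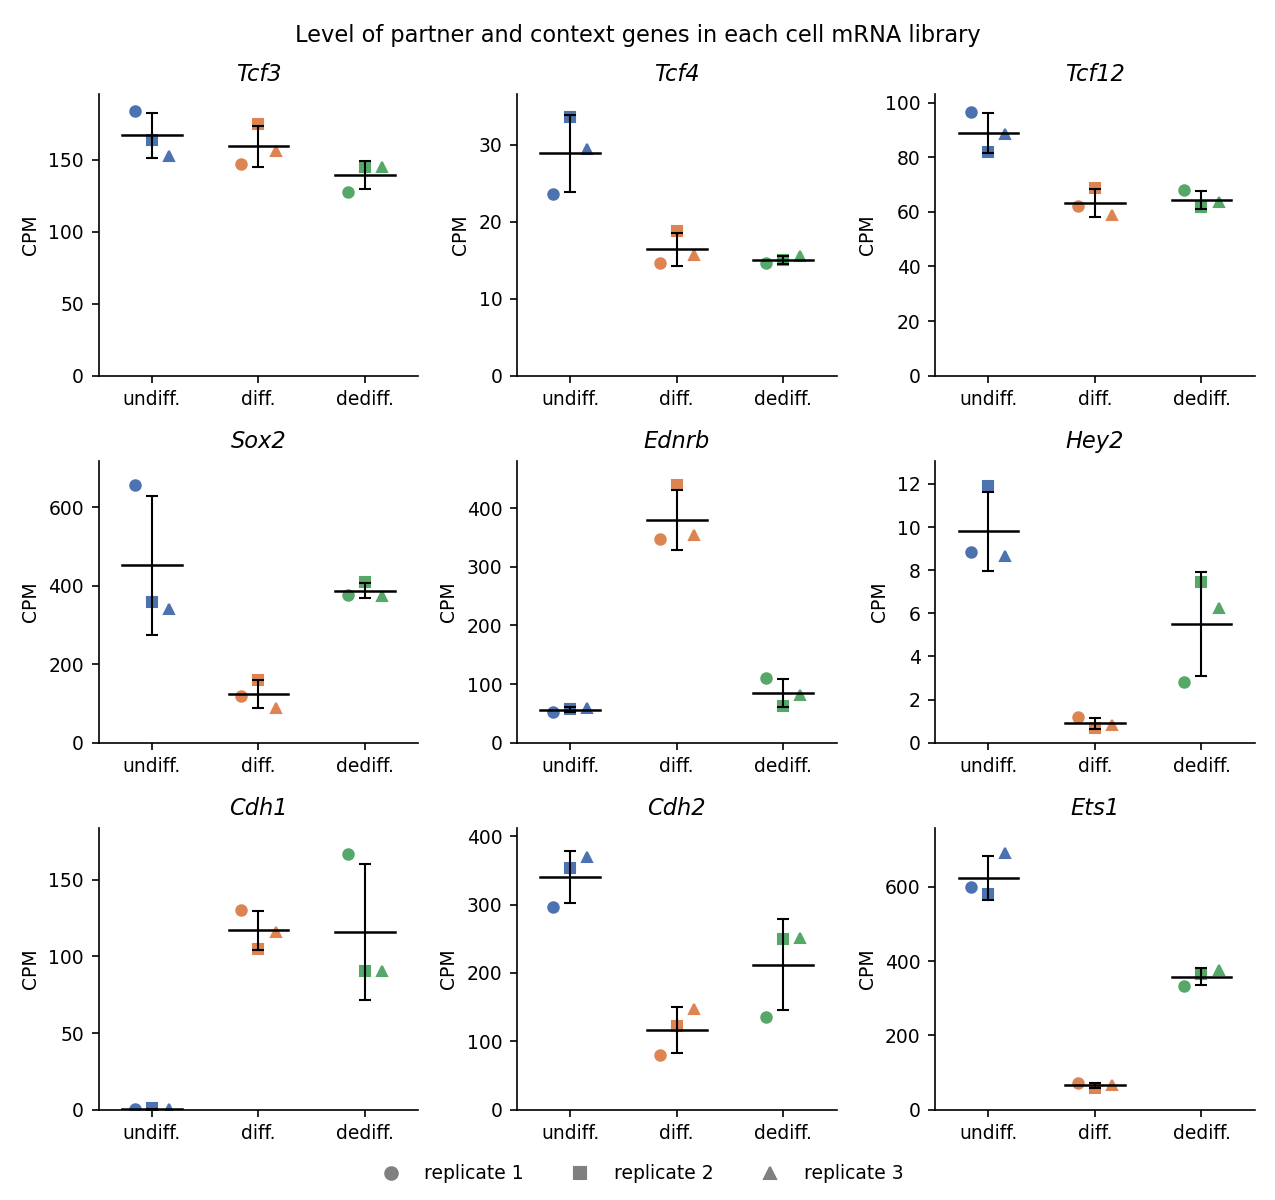
Level in CPM (vertical axes, from 0) of the 3 E proteins, the Zeb2-repressed genes Sox2, Ednrb and Hey2, the cadherins Cdh1 and Cdh2, and Ets1, by stage. Symbols are single libraries, with the shape giving the replicate, lines are means and bars are SD over 3 libraries. Sox2, Hey2 and Ets1 dip in differentiated cells, Ednrb peaks there, and Cdh1 stays at 90.3 CPM or more in both later stages.

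For each of the 7 tested genes, up to 3 genes with the most similar course are given, taken by Pearson correlation of log2 CPM over the 9 libraries. These are descriptions over libraries that share 3 stages. Id2 ran with St6galnac6 (r = 0.995) and the monocarboxylate transporter Slc16a1 (0.994). Id4 ran with Gtf2h1 (0.991), Eif1b (0.989) and Cluh (0.988), and Id3 with Zdhhc18 (0.98), Klhl21 (0.976) and the Schwann cell factor Sox10 (0.975). Snai2 ran with Ppp1r16a (0.997), the polarity gene Pard3b (0.996) and Prex2 (0.996), and Zeb2 with Socs6 (0.997), Sik3 (0.992) and Ppfia1 (0.991). For Id1 (Tmem263 and Alkbh5 at 0.934, Cab39 at 0.928) and Zeb1 (Rfxank at 0.945, Rdm1 at 0.938, Fcho2 at 0.931) the likeness was weaker.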

How the data were processed

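Cell mRNA values are estimated counts, deposited by the authors as a salmon table by gene. The submitters' processing notes name Salmon, STAR, HISAT2 and DESeq2 1.26.0 without their roles, and the genome build and annotation are not given in the sources used here. Libraries were directional and made from 10 ng of total RNA, per the labels' protocols. Columns were matched to samples by titles, which were followed where a column suffix disagreed. The 1.15% of values that were fractional were rounded. edgeR 4.0.16 (R 4.3.3) was fitted to all 9 libraries without covariates, after filterByExpr with a minimum count of 10 and TMM scaling. The SE is the log2 change divided by the square root of F. EV miRNA values are raw counts deposited by the authors, with 361 entries tested alike. The 9 genes and all lists were chosen with earlier results of these data known. The text names all 9 genes, every gene of lists of up to 3, of longer lists the 2 called genes with the largest change in each direction under dbcAMP, and 3 genes of like course per tested gene. Some genes that these rules take are not reported here. Alternatives were DESeq2's size factors and Wald test (1.42.0), library size alone, leaving out the 10 most abundant genes, no filter, 10 counts in every library, the replicate number as a block, sequencing project as a covariate, the first project alone, and leaving out each library.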

Additional observations from a re-analysis of the deposited data

Results flagged for a closer look

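The small extracellular vesicles of these cultures were sequenced as well, outside the comparisons above, and their miRNA table holds the miR-200 family, known for targeting Zeb1 and Zeb2. The hairpin entry mir-200c stood out as a signal in data the comparisons did not use. It was counted 1, 0 and 1 times in vesicles of undifferentiated cells, 11, 5 and 1 times in those of differentiated cells and 51, 16 and 18 times in those of dedifferentiated cells, with library totals of 81807 to 474965 counts. In CPM this was 12.2, 0 and 2.45, then 6.74 to 68.3, then 563, 58.2 and 86.3, so that the dedifferentiated libraries were above all undifferentiated ones and overlapped the differentiated ones. Against undifferentiated cells edgeR's log2 change was 5.87 (SE 1.3, adjusted p = 0.0211), in a comparison where 7.48% of 361 entries were called. The entry passed the filter on low counts through its dedifferentiated libraries, and its undifferentiated counts were all under the floor of 3 counts. Over 5 other analyses chosen after seeing the data the adjusted p was 0.000367 to 0.0487. It was 0.118 without undifferentiated replicate 2, 0.107 without undifferentiated replicate 3 and 0.128 without dedifferentiated replicate 1, with log2 changes of 5.03, 5.68 and 4.47. The hairpin mir-200b was counted 3, 8 and 4, then 0, 7 and 2, then 15, 22 and 54 times and was not called (adjusted p = 0.0723 against undifferentiated cells). The mature miR-200c-3p, at 3, 6 and 0, then 4, 2 and 0, then 15, 0 and 2 counts, was too low to test. A read of a mature miRNA may be counted under both kinds of entry, and how such reads were shared is not given in the sources used here.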

How the results depend on the processing

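Id2, Id4, Snai2 and Zeb2 under dbcAMP, Id3 under dbcAMP, and Id2, Id4 and Snai2 after withdrawal kept direction and call in every analysis that could be run for them, Snai2 dropping out where 10 counts were asked of every library. In the first sequencing project alone, with 2 libraries a stage, 3 of the 9 genes were called after withdrawal instead of 5. All genes called then numbered 2606 instead of 4809 after withdrawal and 1283 instead of 3045 against undifferentiated cells, and listed genes 15 instead of 31 and 15 instead of 27. Leaving out 1 library at a time gave 5 to 6, 4 to 6 and 3 to 5 of the 9 genes in the 3 comparisons. Over all genes it gave 5558 to 6415, 3916 to 5184 and 2246 to 3044 called. Some changes that were not called reversed in sign. Zeb1 under dbcAMP was 0.02 with library size alone and -0.24 to 0.17 with 1 library left out. Id1 after withdrawal was -0.08 in the first project, and Id3 against undifferentiated cells -0.05 there and -0.03 to 0.49 with 1 library left out. Cdh1 after withdrawal was -0.01 with library size alone, 0 in DESeq2's Wald test and with its size factors, -0.05 with the replicate block, -0.02 with project as a covariate, and -0.35 to 0.16 with 1 library left out. With 1 library left out, Tcf12 after withdrawal ranged from -0.02 to 0.1, and against undifferentiated cells Bmp6 from -0.02 to 2.39 and Sox2 from -0.47 to 0.12. The cause was not tested. The scaling moved the median of all genes by at most 0.06, but the share of called genes that were higher against undifferentiated cells was 54.7% with TMM, 62.6% with library size alone and 49% with DESeq2's size factors, and under dbcAMP 53.2%, 58.5% and 50.7%.

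Titles give equal replicate numbers to the stages without tying a number to a culture. Between same-numbered libraries the deviations from their stage means had correlations of 0.028 to 0.304, over 0.1 in 7 of 9 pairs, and 8 of 9 libraries correlated best with one of their own number. With the number as a block, 6325, 5031 and 3256 genes were called in the 3 comparisons. It left 5 of the 9 genes called under dbcAMP and 4 against undifferentiated cells, and gave 6 after withdrawal, where it called Zeb1 (log2 change 0.67, adjusted p = 0.031). Among the other named genes it called Hey2 against undifferentiated cells (-0.91, adjusted p = 0.0461) and Bmp6 after withdrawal (-1.67, adjusted p = 0.0419), and lost Cdh11 under dbcAMP (adjusted p = 0.0511) and Ednrb against undifferentiated cells (adjusted p = 0.0577).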
